A study of Mus musculus with 3 samples.

Results

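The 55 genes described here encode the enzymes, activator proteins and membrane proteins of the lysosome, together with the transcription factors Tfeb and Tfe3 and the cathepsin inhibitor Cst3. They were chosen by gene symbol from a list of known lysosomal genes, with earlier results of these data known, so their levels are a description. All 55 were found among the 55536 annotated genes of the tables, of which 22028 are protein-coding. The libraries came from the cytosolic fraction of bone marrow-derived macrophages, which are macrophages grown from mouse marrow precursors, of strain C57BL/6J. The cells had been exposed to 100 ng/ml lipid A, the part of bacterial lipopolysaccharide sensed by Toll-like receptor 4, for 12 h and then kept without it for 12 h, and were taken at 0 min of a second exposure to 100 ng/ml. Ribosomal RNA was depleted before total RNA sequencing. Gene coordinates are those of GENCODE M21 on mm10. All 3 libraries belong to this 1 group and are numbered as biological replicates 1, 2 and 3 in the labels, with a shared donor identifier, and the age and sex of the mice were not collected. No unexposed cells or later times were analysed here, so the levels below describe pre-exposed macrophages and no response to lipid A.

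Lysosomes are acidic organelles in which macrophages break down what they engulf and what autophagy delivers. Most of their soluble enzymes are made as inactive precursors, tagged with mannose 6-phosphate in the Golgi and carried to the organelle by receptors, and the limiting membrane is protected by heavily glycosylated proteins such as LAMP-family members. TFEB and TFE3 are related basic helix-loop-helix factors that enter the nucleus when the kinase mTORC1 is inactive and bind E-box motifs near lysosomal genes.

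The gene rows held 28981178, 53119941 and 46783133 expected counts in replicates 1, 2 and 3, and a count of 0 allows at most 0.104, 0.0565 and 0.0641 CPM, counts scaled by the library total (3 counts of the total, counting error only). RNA of the signal recognition particle (7SL) took 52.5% to 65.3% of all TPM, the deposited abundance that is normalised for transcript length and for the library's total, so that protein-coding genes held only 27.2% to 31.6%. All 12 macrophage markers checked, among them Adgre1 and Csf1r, reached 10 TPM in every library. No marker of B cells, T and NK cells, dendritic cells, fibroblasts, mast cells or erythroid cells reached 1 TPM in every library, against 2 of 8 neutrophil markers (S100a8 and S100a9, at 2.96 and 4.54 TPM on average) and 1 of 6 osteoclast markers (Acp5, at 13.2 TPM, an enzyme that macrophages also make). In bulk RNA of this kind, fewer cells of a type and less RNA per cell cannot be told apart.

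The E-box CACGTG, which reads the same on both strands, was searched in the 300 bases around the start of each gene, 250 before and 50 after, in promoter sequences from RefSeq (GRCm38.p6). A promoter was on file for 49 of the 55 genes, and Ctsb, Ctse, Ctsh, Asah1, Npc1 and Galns had no entry. The motif was in 14 of the 49 lysosomal promoters (28.6%), against 8.09% of the 27025 promoters searched and 13.6% of 3343 promoters of protein-coding genes averaging 10 TPM or more. The longer form TCACGTGA, which contains CACGTG and also reads the same on both strands, was in 5 of the 49 (10.2%), namely Ctsa, Ctsd, Cln3, Gla and Mcoln1, against 1.12% of all promoters and 3.08% of the same 3343. Promoters of 89 other lysosomal genes held CACGTG in 20 cases (22.5%) and TCACGTGA in 10 (11.2%). Lamp1 held 4 copies, 61, 45, 28 and 15 bases before its start, and Cln3, Ctsa, Ctsd, Gla and Mcoln1 held 2 each. The other 8 promoters, those of Arsa, Ctsf, Ctsl, Gaa, Glb1, Lgmn, Naglu and Sgsh, held 1. The 160 bases before the start are shown for Lamp1, with the most copies, and for Glb1 and Sgsh, each with a copy within 50 bases of the start, with the E-boxes in capitals. The Lamp1 stretch is chr8:13159001-13159160 on the plus strand, the Glb1 stretch chr9:114400918-114401077 on the plus strand and the Sgsh stretch chr11:119355511-119355670 on the minus strand.
Lamp1: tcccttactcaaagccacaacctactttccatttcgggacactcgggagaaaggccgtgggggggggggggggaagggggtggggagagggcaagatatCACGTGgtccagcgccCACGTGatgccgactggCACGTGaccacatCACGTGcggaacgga
Glb1: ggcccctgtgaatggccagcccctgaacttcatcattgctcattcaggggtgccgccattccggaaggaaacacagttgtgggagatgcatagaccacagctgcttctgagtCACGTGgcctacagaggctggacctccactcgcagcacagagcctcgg
Sgsh: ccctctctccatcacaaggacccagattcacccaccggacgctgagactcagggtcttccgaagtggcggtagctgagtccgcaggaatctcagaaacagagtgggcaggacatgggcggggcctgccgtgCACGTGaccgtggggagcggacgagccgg
The genes with an E-box ranged from 1.39 TPM (Ctsf) to 2895 TPM (Ctsd), and their median mean level was 43.4 TPM, against 59.7 TPM for the 35 lysosomal genes whose promoters held none. A match describes these letters only, since no binding was measured. The start used by the most abundant annotated transcript was at the RefSeq start for Lamp1 and 2 bases before it for Glb1. For Sgsh it was 26 bases before, inside the E-box shown. It was 82 bases before for Naglu and 62 for Mcoln1, so copies 73 (Naglu) and 45 bases (Mcoln1) before the RefSeq start lie after it. It was 900 bases before for Ctsa, 721 for Lgmn and 211 for Ctsd, and 214 bases after for Ctsl. For these last 4 genes the window lies largely or wholly away from the region just before the start in use. The Ctsd copy 245 bases before the RefSeq start lies before the start in use, and the copy 98 bases before lies after it. For Arsa the start in use was 1311 bases after the RefSeq start, but that transcript, Arsa-201, is of a retained intron type. The protein-coding Arsa-202 starts 1 base before the RefSeq start, and the Arsa E-box lies 16 bases before the RefSeq start.

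**Figure D1:**
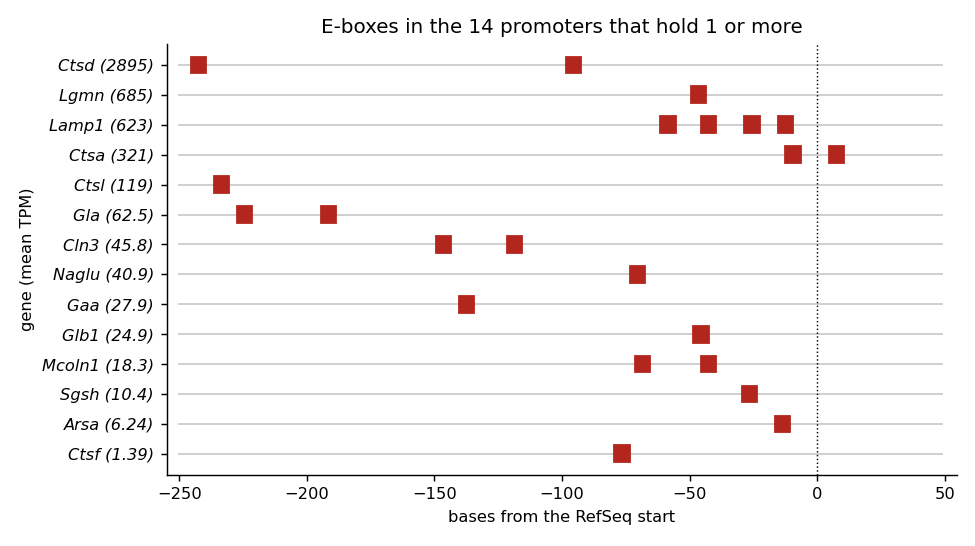
Positions of the E-box CACGTG, red blocks 6 bases wide, in the 14 lysosomal promoters that hold it. The horizontal axis gives bases from the RefSeq start (dotted line), each grey line is 1 promoter window, and genes run from the highest mean TPM (Ctsd, 2895) at the top to the lowest (Ctsf, 1.39). Lamp1 holds 4 copies within 61 bases of its start.

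Lysosomal genes were among the most abundant messages in the cytosolic fraction of these macrophages. Of the 55 genes, 53 reached 1 TPM in every library, as did 41.2% of protein-coding genes, 46 reached 10 TPM (17.1% of protein-coding genes) and 21 reached 100 TPM (1.73% of protein-coding genes). Together they took 6.84%, 7.09% and 7.21% of the protein-coding TPM in replicates 1, 2 and 3, or 7.05% ± 0.19 (SD, n = 3). Ranked by mean TPM, 10 of the 50 most abundant protein-coding genes and 12 of the top 100 were lysosomal genes. The sum was concentrated in few genes: the 6 highest, Psap, Lyz2, Ctsd, Ctsb, Ctss and Ctsz, held 69.0% ± 1.31 (SD, n = 3) of the TPM of all 55. The median gene of the list had 54.2, 45.0 and 63.7 TPM in replicates 1, 2 and 3. The lower median of replicate 2 stands beside the largest 7SL share of the 3 libraries (65.3%), and the part of 7SL in it was not tested.

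**Figure D2:**
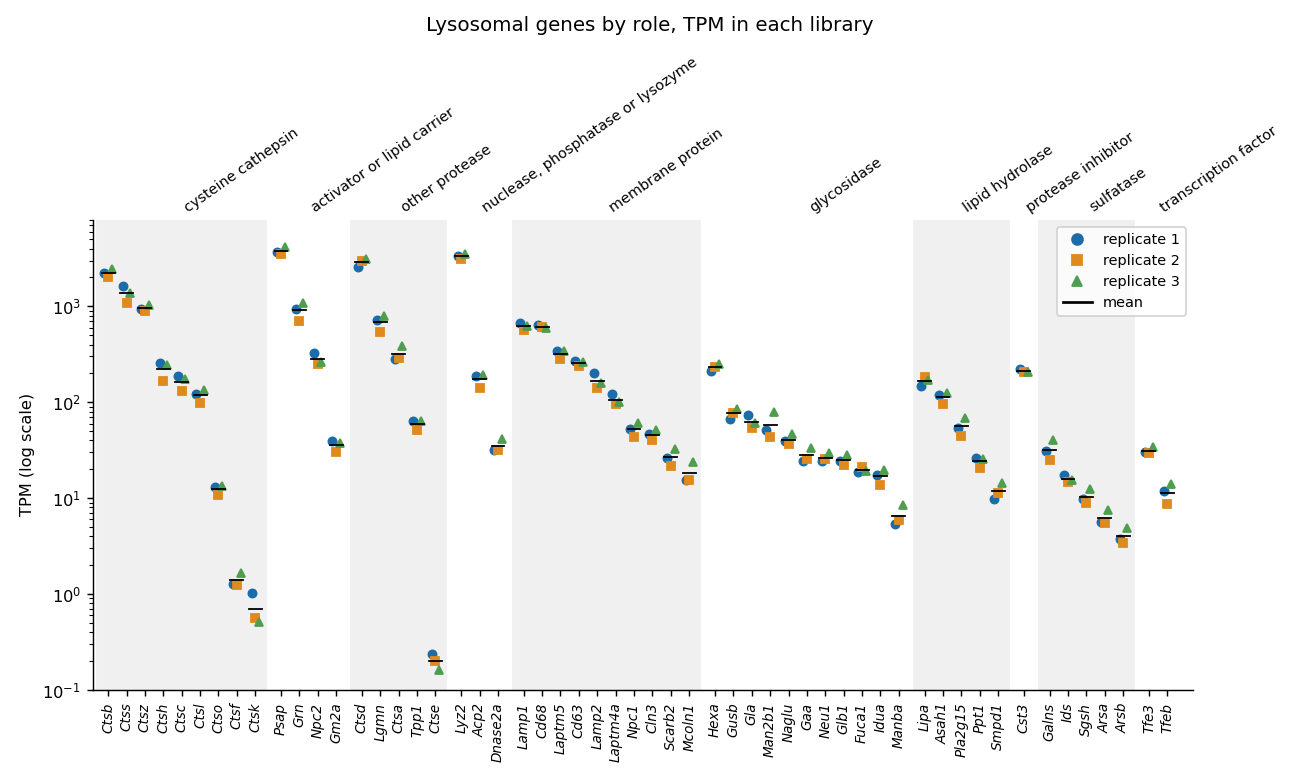
TPM of each of the 55 lysosomal genes in the 3 libraries, on a log scale, grouped by role in order of the groups' summed TPM, with the black bar at the mean. Cysteine cathepsins span from 2218 TPM (Ctsb) to 0.697 TPM (Ctsk), while all 5 sulfatases lie below 50 TPM.

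**Figure D3:**
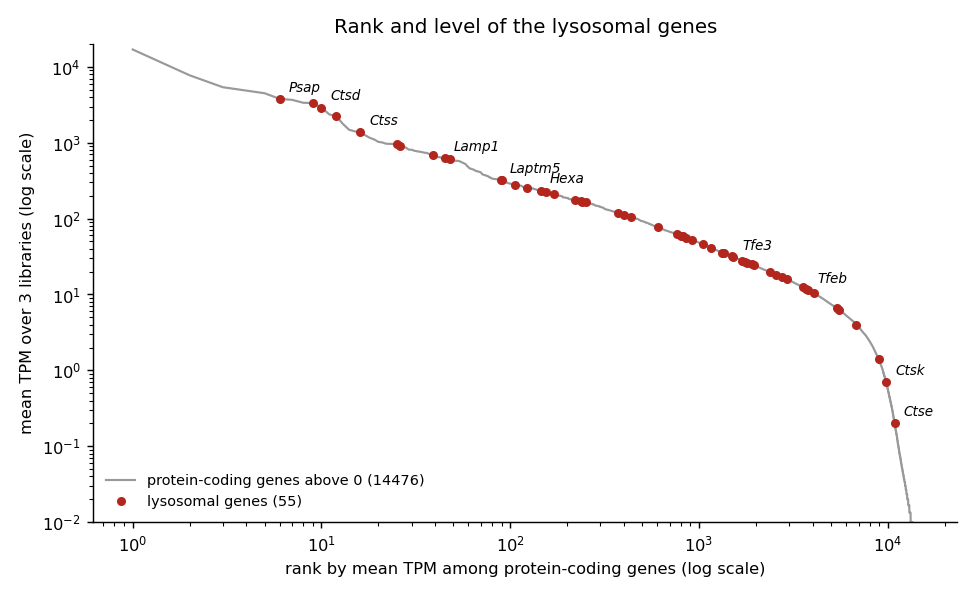
Mean TPM over 3 libraries against rank among protein-coding genes, both on log scales; the grey line is all protein-coding genes above 0 and red points are the 55 lysosomal genes. Psap sits at rank 6 and Lyz2, Ctsd, Ctsb and Ctss lie within the first 16 ranks, while Ctsk and Ctse lie at ranks 9778 and 10865.

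Proteases carried the largest part of the lysosomal message. The 9 cysteine cathepsins, papain-like endo- and exopeptidases, summed to 5351, 4413 and 5418 TPM in replicates 1, 2 and 3, or 24.0% of the TPM of the 55 genes. Ctsb, whose product is both an endopeptidase and a dipeptidyl carboxypeptidase (chr14:63122462-63145923, plus strand), had 2205, 2015 and 2435 TPM. Ctss, the protease that trims the invariant chain in antigen-presenting cells, had 1616, 1093 and 1381 TPM. Ctsz, a carboxypeptidase, had 948, 896 and 1032 TPM. These 3 genes stood in the same order in every library and above all other cysteine cathepsins, of which Ctsh, Ctsc and Ctsl averaged 223, 164 and 119 TPM. Ctso averaged 12.4 TPM, and Ctsf and Ctsk 1.39 and 0.697 TPM. Ctsk, the collagen-degrading cathepsin known from osteoclasts (chr3:95499256-95509362, plus strand), had 1.02, 0.56 and 0.51 TPM and was the lowest of the group. Ctss was 11.5 ± 1.59 times Ctsl (ratio of TPM, SD, n = 3).

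The 5 other proteases summed to 3652, 3882 and 4348.5 TPM (18.8% of the TPM of the 55 genes). Ctsd, the main aspartic protease of lysosomes (chr7:142375911-142388038, minus strand), had 2579, 2999.6 and 3106 TPM. By deposited gene TPM it was 1.31 ± 0.16 times Ctsb (SD, n = 3) and above it in every library, their ranges not overlapping. The second quantification, made from unaligned reads and here rescaled to protein-coding TPM, gave 7788, 10418 and 9259 for Ctsd. It gave 8712, 9423 and 9228 for Ctsb, so Ctsb was higher in replicate 1 and the ranges overlapped. Lgmn, an asparaginyl endopeptidase that matures several cathepsins, had 723, 539.7 and 792 TPM. Ctsa, a serine carboxypeptidase that also protects neuraminidase and beta-galactosidase in a complex, had 285, 291 and 387 TPM. Its ratio was 12.1 ± 0.95 to Neu1 and 12.8 ± 1.08 to Glb1, the genes of its enzyme partners (SD, n = 3 each). Tpp1, a tripeptidyl peptidase, averaged 59.7 TPM. Ctse, an aspartic protease of some immune and gastric cells, had only 0.24, 0.20 and 0.16 TPM, from 22, 36 and 22 counts.

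Cst3 encodes cystatin C, a secreted inhibitor of papain-like cathepsins. It had 223, 204 and 205 TPM, within the range of Ctsh. The summed cysteine cathepsins were 23.9, 21.6 and 26.5 times Cst3 in replicates 1, 2 and 3. The cytosolic inhibitor Cstb, which is not among the 55, was higher than Cst3 in every library, with 453, 459.5 and 384 TPM.

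The activator and lipid carrier group was about as large as the cysteine cathepsins, with 4972, 4457 and 5598 TPM from 4 genes (23.7% of the TPM of the 55 genes). Its sum was below theirs in replicate 1 and above it in replicates 2 and 3. Psap, the precursor of the saposins that present sphingolipids to their hydrolases (chr10:60277627-60302597, plus strand), had 3669, 3478 and 4205 TPM and was the highest of all 55 genes in every library. Grn, whose product progranulin is cleaved to granulins in lysosomes, had 939, 695 and 1090.2 TPM. Npc2, the soluble carrier that hands cholesterol to NPC1, had 325, 253 and 265 TPM. It was 5.44 ± 0.96 times Npc1, the membrane protein that takes the cholesterol up (SD, n = 3). Gm2a, the activator that lifts ganglioside GM2 out of the membrane, was the lowest of the group with 39.3, 30.1 and 37.2 TPM.

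Lyz2, the lysozyme of mouse myeloid cells, which cuts bacterial cell walls (chr10:117277331-117282321, minus strand), had 3362, 3117 and 3498.5 TPM. It was second of the 55 genes, with Psap at 1.14 ± 0.06 times its level (SD, n = 3). The near-identical Lyz1 had 1.16, 1.16 and 1.06 TPM, and reads that match both copies are split between them in the expected counts. Acp2, a lysosomal acid phosphatase, had 188, 141 and 194 TPM. Dnase2a, the acid endonuclease that degrades engulfed DNA, had 31.6, 31.8 and 41.1 TPM. With Lyz2 these 2 genes made up 16.8% of the TPM of the 55, nearly all of it from Lyz2.

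The glycosidases, exo-enzymes that remove sugars from glycoproteins, glycolipids and glycosaminoglycans, were many but low. Their 11 genes summed to 559, 561 and 662 TPM, 2.82% of the TPM of the 55, and 10 of the 11 reached 10 TPM in every library. Hexa, the alpha subunit of beta-hexosaminidase, had 212, 235 and 252 TPM. Its level was 6.67 ± 1.22 times that of Gm2a (SD, n = 3). Gusb, beta-glucuronidase, had 67.3, 77.8 and 85.5 TPM. Gla, the alpha-galactosidase lost in Fabry disease, had 72.8, 53.8 and 60.8 TPM. Gusb and Gla overlapped in range. Man2b1, Naglu, Gaa, Neu1, Glb1, Fuca1 and Idua averaged 16.9 to 58.2 TPM, and Manba, beta-mannosidase, was lowest with 5.39, 5.86 and 8.51 TPM.

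Sulfatases had the lowest summed level of the enzyme groups. All 5 together summed to 67.5, 57.7 and 80.4 TPM, 0.32% of the TPM of the 55 genes. Galns, which removes sulfate from keratan and chondroitin sulfate, had 30.8, 25.0 and 40.2 TPM. Ids, the iduronate sulfatase lost in Hunter disease, had 17.5, 14.8 and 15.4 TPM. Sgsh, a heparan sulfamidase, had 9.76, 8.90 and 12.5 TPM. Galns and Ids reached 10 TPM in every library, and Sgsh in replicate 3 alone. Arsa, which acts on sulfatide, averaged 6.24 TPM, and Arsb, which acts on dermatan sulfate, was lowest with 3.71, 3.44 and 4.87 TPM.

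Of the 5 lipid hydrolases, which summed to 357, 355 and 404 TPM (1.77% of the TPM of the 55), Lipa was the highest. Lipa, the acid lipase that frees cholesterol from its esters, had 148, 184 and 171 TPM. Asah1, acid ceramidase, had 118, 94.8 and 124 TPM. Pla2g15, a lysosomal phospholipase A2, had 54.2, 45.0 and 69.0 TPM. Lipa was above Asah1 in each library. Ppt1, which removes palmitate from proteins, averaged 24.2 TPM, and Smpd1, acid sphingomyelinase, was lowest with 9.84, 11.3 and 14.5 TPM.

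All 10 membrane proteins reached 10 TPM in every library and summed to 2383, 2044 and 2258.5 TPM (10.6% of the TPM of the 55). Lamp1, the main glycoprotein of the lysosomal membrane, had 677, 562 and 629 TPM. Cd68, the macrophage member of the same family, had 635, 604 and 592 TPM. Laptm5, a transmembrane protein of blood cells, had 338, 281 and 345 TPM. Lamp1 and Cd68 changed places between libraries, while both lay above Laptm5 without overlap. Lamp2, needed for fusion of autophagosomes with lysosomes, had 204, 141 and 160 TPM, and Lamp1 was 3.75 ± 0.37 times as abundant (SD, n = 3). Cd63, a tetraspanin, averaged 257 TPM and Laptm4a 106 TPM. Npc1, Cln3 and Scarb2, the receptor that carries glucocerebrosidase to lysosomes, averaged 52.4, 45.8 and 26.9 TPM. Mcoln1, the calcium-conducting channel TRPML1, was the lowest with 15.3, 15.4 and 24.1 TPM.

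The transcription factors stood in the lower part of the list, Tfe3 in place 36 and Tfeb in place 48 of the 55. Tfe3 had 30.3, 29.4 and 34.0 TPM. Tfeb (chr17:47737030-47792419, plus strand) had 11.8, 8.62 and 13.9 TPM. Tfe3 was above Tfeb in all 3 libraries, at 2.56, 3.41 and 2.44 times its level. Their relatives Mitf and Tfec averaged 16.0 and 8.46 TPM.

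Most neighbours in this order could not be separated. Of the 54 neighbouring pairs from Psap down to Ctse, 25 kept their order in every library, and in 13 the lowest library of the upper gene was above the highest library of the lower gene. By deposited TPM, ranges did not overlap on the way from Lyz2 through Ctsd and Ctsb to Ctss and Ctsz. Nor did they overlap at the low end from Arsa through Arsb, Ctsf and Ctsk to Ctse. After rescaling to protein-coding TPM, Lyz2 and Ctsd did overlap, with Ctsd at 11015 in replicate 2 and Lyz2 at 10857 in replicate 1. In the rescaled quantification from unaligned reads, Ctsd overlapped both Lyz2 and Ctsb. In the lower middle of the list, from Galns at 32.0 TPM through Tfe3, Gaa, Scarb2, Neu1, Glb1, Ppt1, Fuca1, Mcoln1 and Idua to Ids at 15.9 TPM, each gene overlapped the next in range.

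The libraries were then compared with each other, as the spread behind all of these levels. Counts were scaled to CPM with TMM factors, and a gene was called different when a chi-square test of homogeneity of its counts passed 0.05 after Benjamini-Hochberg adjustment and the highest library was at least 2 times the lowest. The labels do not tie the libraries to separate animals or cultures, so these p-values speak only of differences among 3 libraries, possibly technical ones, and cover counting error alone. All 55 genes had enough counts to be tested, and 1 was called, against 16.2% of the 13636 genes tested and 8.12% of the 11540 protein-coding genes among them. These shares include genes down to a mean of 10 counts and were not matched for expression level. The called gene was Ctsk, with 2.22, 1.33 and 0.962 CPM in replicates 1, 2 and 3, a ratio of 2.30 and an adjusted p of 6.68e-05. It rests on 62, 70 and 47 counts, and it was not called without replicate 1 (ratio 1.37) or without replicate 3 (ratio 1.66). Summed osteoclast markers were 12.5, 9.94 and 17.7 TPM in replicates 1, 2 and 3, nearly all from Acp5, with Calcr at 0 in every library. Unlike Ctsk, they were highest in replicate 3, and their part in the result was not tested.

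The next largest ratios were 1.75 for Ctse, whose adjusted p of 0.173 in the same chi-square test with Benjamini-Hochberg adjustment missed the threshold, and 1.52 for Lamp2. Lamp2 had 873, 628 and 573 CPM, highest in replicate 1. Over the 55 genes the median ratio of highest to lowest library was 1.22, against 1.27 for the protein-coding genes tested, with Naglu lowest at 1.02. The depth made small differences detectable, and 50 of the 55 genes passed the adjusted threshold when no ratio was required, as did 75.6% of all genes tested. The common biological coefficient of variation estimated by edgeR was 0.112 for the 55 genes, 0.17 for protein-coding genes and 0.21 for all genes. Among genes averaging 10 TPM or more the median coefficient of variation, after rescaling to protein-coding TPM, was 10.5% for 49 lysosomal genes and 10.6% for 4152 protein-coding genes.

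By TMM-scaled CPM, 29 of the 55 genes were highest in replicate 1, against 33.3% of protein-coding genes tested, and 25 were lowest in replicate 3, against 43.4%. Of the 9 cysteine cathepsins 7, and of the 10 membrane proteins 7, were highest in replicate 1. Other groups went differently: of the 5 sulfatases 4 were highest in replicate 3, and the 11 glycosidases split 4, 4 and 3 over replicates 1, 2 and 3. The median log2 difference of a library from the mean of the other 2 was 0.08, -0.02 and -0.07 for replicates 1, 2 and 3 over the 55 genes. The same medians were 0.0025, 0.05 and -0.06 over all protein-coding genes tested, and 0.08, 0.05 and -0.14 over those averaging 10 TPM or more. These directions depend on the scaling. TPM is normalised for transcript length, as CPM is not, and keeps 7SL in the total. On log2(TPM + 1), the medians were 0.03, -0.22 and 0.23 over the 55 genes. They were -0.05, -0.12 and 0.16 over all protein-coding genes tested. Replicate 3 was thus the lowest library by TMM-scaled CPM and the highest by TPM, for the 55 genes and for protein-coding genes alike. The share of protein-coding TPM held by the 55 genes, which leaves 7SL out, was also highest in replicate 3 (7.21%). The parts of length normalisation and of 7SL in this difference were not tested.

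**Figure D4:**
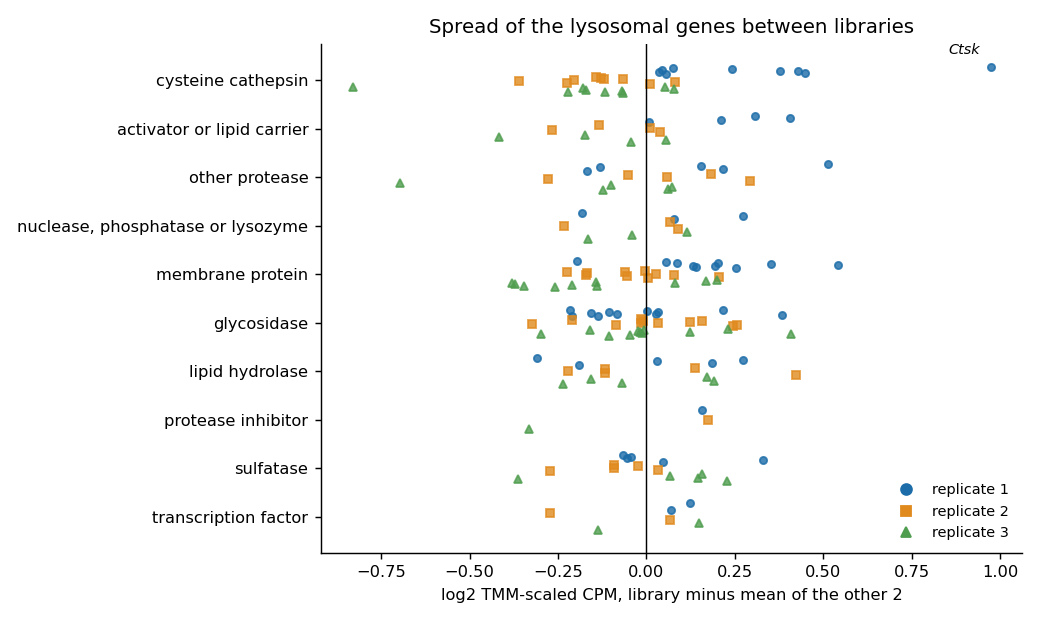
Difference on the log2 scale of TMM-scaled CPM between each library and the mean of the other 2, for the 55 lysosomal genes by role; each point is 1 gene in 1 library. Ctsk in replicate 1 lies farthest from 0, and points for cysteine cathepsins in replicate 1 lie above 0 in all 9 cases.

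Several of the most abundant genes were made as a mixture of annotated transcripts. Shares are given from the table derived directly from reads and from the table derived from alignments, which quantify the same libraries. Summed per gene and rescaled to protein-coding TPM, none of the 53 genes averaging 1 TPM or more differed 1.5-fold or more between the tables in the same direction in every library, as 1.19% of protein-coding genes did. The most abundant transcript differed between the tables for 2 of the 53, Lamp2 and Tfeb, against 8.94% of protein-coding genes at that level. The most abundant transcript of the alignment-derived table was not of a protein-coding type for 1 of the 53, Arsa, against 4.84%.

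The tables matched closely for Ctss. Ctss-202 held 84.9% ± 0.51 of the gene's TPM in the read-derived table and 85.0% ± 0.45 in the alignment-derived table, and Ctss-201 the rest (SD, n = 3). The coding parts of the transcripts differ by 3 bases, at chr3:95529434-95529436 on the plus strand. They are shown in capitals in Ctss-201, with 15 coding bases on either side from the GENCODE M21 transcripts, beside the same stretch of Ctss-202.
Ctss-201: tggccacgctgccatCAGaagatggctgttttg
Ctss-202: tggccacgctgccataagatggctgttttg
For Ctsd the tables gave different mixtures. Ctsd-202 held 99.0% ± 0.50 in the read-derived table and 73.4% ± 3.89 in the alignment-derived table, and Ctsd-201 0.89% ± 0.31 and 26.4% ± 3.90 (SD, n = 3). Their coding parts differ by 18 bases at chr7:142377333-142377350 on the minus strand, in capitals in Ctsd-202, and Ctsd-202 also has 181 bases of its own at the first exon that code for nothing.
Ctsd-202: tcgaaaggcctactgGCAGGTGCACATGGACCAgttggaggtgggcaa
Ctsd-201: tcgaaaggcctactggttggaggtgggcaa
The 3-base and 18-base stretches keep the reading frame.

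Lamp2 was made in nearly equal parts of transcripts with different last exons. Lamp2-201 held 51.1%, 55.8% and 51.8% in replicates 1, 2 and 3 of the read-derived table, and 47.5%, 51.2% and 48.3% in the alignment-derived table. Lamp2-202 held 48.3%, 43.7% and 45.4% in the read-derived table and 52.0%, 48.2% and 49.4% in the alignment-derived table. Lamp2-201 thus led in all 3 libraries of the read-derived table and in 1 of 3 of the alignment-derived table, replicate 2. Each last exon has 137 coding bases of its own, known to encode alternative membrane spans and cytosolic tails of LAMP2. Those of Lamp2-201 lie at chrX:38405435-38405571 and those of Lamp2-202 at chrX:38421715-38421851, both on the minus strand.
Lamp2-201: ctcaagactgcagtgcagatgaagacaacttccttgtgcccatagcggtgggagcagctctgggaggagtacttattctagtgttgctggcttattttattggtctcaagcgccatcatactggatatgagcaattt
Lamp2-202: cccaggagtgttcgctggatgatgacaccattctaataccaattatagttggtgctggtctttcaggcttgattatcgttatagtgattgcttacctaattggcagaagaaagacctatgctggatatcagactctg
The third coding variant, Lamp2-203, held 0.53% in the read-derived table and 0.46% in the alignment-derived table.

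Psap came from alternative first exons. Psap-202 held 65.0%, 65.4% and 71.0% in replicates 1, 2 and 3 of the read-derived table, and 58.5%, 57.1% and 65.7% in the alignment-derived table. Psap-203 averaged 29.4% and 36.9% in those tables. Its first exon lies at chr10:60284461-60284531 and that of Psap-202 at chr10:60277627-60277782, both on the plus strand. The share of Psap-202 was highest in replicate 3 in both tables. Lgmn and Gaa were mixtures whose transcripts share their coding bases: Lgmn-201 held 65.9% and 52.1% and Gaa-203 66.0% and 53.4% in the read-derived and alignment-derived tables.

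Transcript shares of Tfeb varied between libraries and between tables. Tfeb-202 held 46.1%, 71.4% and 35.7% in replicates 1, 2 and 3 of the read-derived table, and 39.2%, 52.8% and 42.6% in the alignment-derived table. Tfeb-212, which lacks 423 coding bases of Tfeb-202, held 38.1%, 18.0% and 21.9% in the read-derived table and 59.9%, 45.5% and 48.6% in the alignment-derived table. Replicate 2 had the highest share of Tfeb-202 in both tables. Tfe3 was spread over Tfe3-204, Tfe3-205 and Tfe3-201, with 33.8%, 12.6% and 26.0% in the read-derived table and 32.7%, 26.3% and 20.9% in the alignment-derived table.

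Transcripts annotated as retained introns or as targets of nonsense-mediated decay took a large part of a few genes. Arsa-201, a retained intron type, held 57.3% ± 1.43 of Arsa in the read-derived table and 62.9% ± 2.41 in the alignment-derived table (SD, n = 3). Ctsh-202, a nonsense-mediated decay type, held 29.4% ± 3.27 and 44.3% ± 3.79 of Ctsh in the same tables. Ctsb-202, a retained intron type of 801 bases, held 38.1% ± 2.35 and 16.0% ± 0.77 of Ctsb, and Npc1-206 held 6.20% ± 2.12 and 34.4% ± 1.71 of Npc1. All types that are not protein-coding together held 38.8% and 5.33% of Asah1 and 26.3% and 6.04% of Acp2. The tables thus differed in both directions for such types. They held more than 10% of the TPM in 10 of the 53 genes in the read-derived table and in 9 in the alignment-derived table. The same count was not made over all protein-coding genes, so these counts mark no trait of the 53. The median share in transcripts of types that are not protein-coding was 2.34% and 1.47% for the 53 genes in the read-derived and alignment-derived tables, against 5.09% and 3.02% for protein-coding genes averaging 1 TPM or more.

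**Figure D5:**
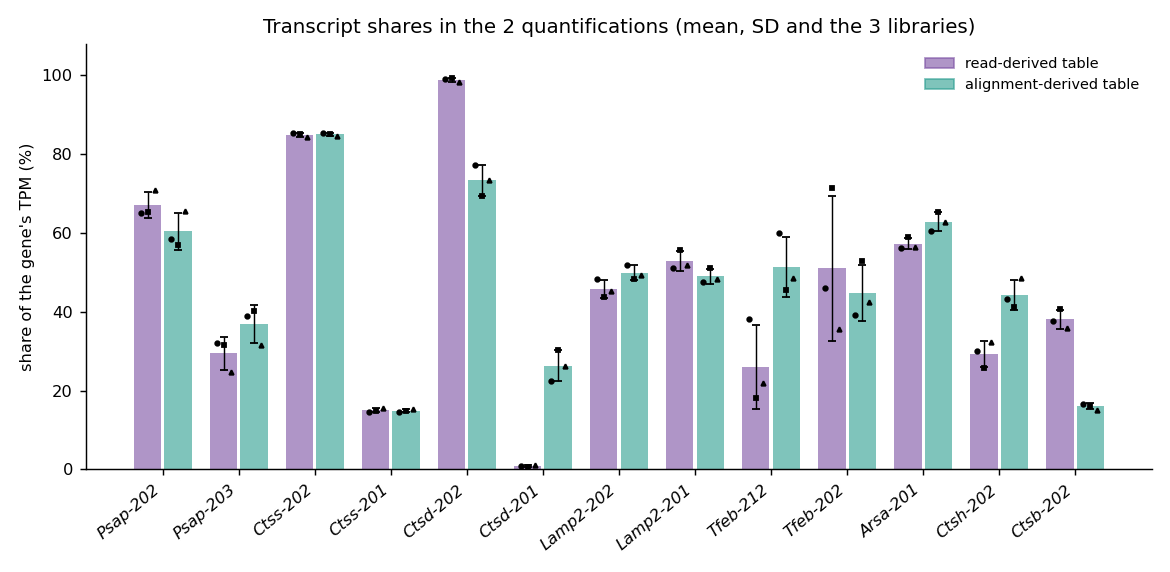
Share of each gene's TPM held by 13 transcripts, in percent, in the read-derived table (purple, left) and the alignment-derived table (green, right); bars are means, error bars SD and points the 3 libraries. The Ctss shares match between the tables, while Ctsd-201 holds 0.89% in the read-derived table and 26.4% in the alignment-derived table.

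The other listed genes of the lysosomal pathway were 118 hydrolases, membrane proteins, delivery factors, inhibitors and regulators. Of these, 102 reached 1 TPM in every library, 70 reached 10 TPM and 10 reached 100 TPM. Of all protein-coding genes 41.2%, 17.1% and 1.73% reached these levels. Of the 55 genes described above, 53, 46 and 21 did, so the further list held fewer genes at 100 TPM. Between libraries, 3 of the 107 tested were called different (Ctla2b, Plbd1 and Mcoln3, each highest in replicate 1), against 16.2% of all genes tested. Among 36 further hydrolases, of which 30 reached 1 TPM, the phospholipase D family members Pld3 and Pld4 averaged 178 and 162 TPM. Among 35 further membrane proteins the highest were Slc15a3, a peptide and histidine transporter, with 204, 203 and 242 TPM, Litaf, averaging 161 TPM, and the fusion protein Vamp8, averaging 110.5 TPM. For delivery to lysosomes, the cation-dependent mannose 6-phosphate receptor gene M6pr had 110.2, 109 and 122 TPM, followed by Vps35 and Ap3b1 at 44.6 and 35.1 TPM, and 19 of 20 genes of this list reached 1 TPM. Of 10 protease inhibitor genes 4 reached 1 TPM, led by Cstb, Serpinb6a and Cst7 at 432, 109.6 and 89.9 TPM. Among 17 regulators and relatives of TFEB and TFE3, 16 reached 1 TPM, with Ywhaz, Fnip2 and Rragc highest at 96.6, 71.1 and 59.4 TPM.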

How the data were processed

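Total RNA-seq of 3 libraries of 1 group was analysed. The deposited README names mm10 and GENCODE M21 and says that 1 gene and 1 transcript table come from aligned reads and 1 transcript table from unaligned reads. Aligner and quantifier: not given in the sources used here, nor is the strand setting. Expected counts, deposited as fractional estimates in which ambiguous reads are shared out, were rounded here for tests. The deposited TPM values are the authors' length-normalised abundances, also as posterior means. The deposited FPKM values, fragments per length and library total, and the deposited percent of each gene's TPM in a transcript are the authors' too, per the file headers. Interval bounds deposited beside the TPM were not used in the text.

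Rows naming no gene (26345, for tRNA and spike-ins) took 0.418%, 0.248% and 0.165% of expected counts and were left out. Library sizes were adjusted by TMM (edgeR 4.0.16 under R 4.3.3), or by DESeq2 1.42.0 size factors as an alternative. Genes with a mean of 10 or more counts were tested by a chi-square test of homogeneity (scipy 1.17.1), with 0.5 counts added for ratios. With 1 group, edgeR's quasi-likelihood test has no contrast. The between-library test was run on simulated counts that vary by counting error alone. The simulation does not cover variation beyond counting error, which these libraries show.

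The genes and lists were chosen with earlier results of these data known. Libraries give TPM per gene for the 3 highest genes and the lowest of each role, genes differing between libraries or tables, and Tfeb, Tfe3 and Lyz2, while others are given by mean or range. Of other lysosomal lists the 3 highest are named, except for a gene that is not reported here. Of 229 symbols listed, 2 were not matched. The labels do not say whether the libraries came from separate animals.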

Additional observations from a re-analysis of the deposited data

How the results depend on the processing

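The share of protein-coding TPM held by the 55 genes (7.05%) was 7.82% on expected counts and 5.93% without Lyz2, and 6.97% to 7.15% with 1 library left out. Of the 55 genes, 1 was called different between libraries in the main setting, 2 at a ratio of 1.5 and 50 with no ratio. The shares over all genes tested were 16.2%, 27.2% and 75.6%. Without replicates 1, 2 and 3 in turn, 0, 1 and 0 of the 55 were called. The shares over all genes tested were then 14.4%, 13.9% and 4.81%. The median log2 difference of replicate 1 (0.077) was -0.003 by library totals. That of replicate 2 (-0.024) was -0.217 on log2(TPM + 1) and -0.233 on log2(TPM + 0.1), and that of replicate 3 (-0.068) was 0.025 by library totals, 0.228 on log2(TPM + 1) and 0.235 on log2(TPM + 0.1). Genes whose leading transcript differed between tables were 2 of 53, against 840 of 9398 protein-coding genes averaging 1 TPM or more. By expected counts they were 1 of 53, against 577 of 9398. Without replicates 1, 2 and 3 in turn they were 2, 2 and 3 of 53. The background was then 865 of 9423, 852 of 9430 and 819 of 9284. The cause of these shifts in medians and transcripts was not tested. The 14 promoters with CACGTG were 5 for TCACGTGA, which contains it. The count at 10 TPM (46) was 34 on read-derived TPM and 52 on TPM rescaled to protein-coding genes, the extremes of the alternatives that kept this threshold. The share of all protein-coding genes at 10 TPM (17.1%) was not recomputed on these scales, so these counts have no background beside them. Depth limits the lowest genes, Ctsk and Ctse, and TPM levels rest on the 7SL share of each library. No paired analysis was possible because all libraries belong to 1 group.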
